A study of Mus musculus with 4 samples.

Results

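The nuclear genes of the mitochondrial respiratory chain and of ATP synthase were followed in tumour-associated macrophages after imatinib treatment. Members were all genes whose symbol starts with Ndufa, Ndufb, Ndufc, Ndufs, Ndufv, Uqcr, Cox4 to Cox8 or Atp5, with Sdha, Sdhb, Sdhc, Sdhd and Cycs. Each was represented by its brightest probe set that carries 1 gene symbol. This gave 85 of the 12393 genes with 1 symbol on the array. By symbol, 34 belonged to complex I, 4 to complex II, 8 to complex III, 16 to complex IV and 17 to complex V. Cycs encodes cytochrome c, and 5 Ndufaf genes encode assembly factors of complex I, which are no subunits and were kept apart. A further 8 probe sets join a member with another symbol and were not used.

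The cells were sorted by flow cytometry from tumours of GIST mice, which develop gastrointestinal stromal tumour; the genotype is not given in the sources used here. For 2 weeks mice drank water with imatinib (600 mg/L) or received vehicle. Sorted cells were pooled from 8 mice of each group, and 200 ng of RNA went to the Affymetrix arrays, so there were 2 vehicle and 2 imatinib arrays. Their titles call the arrays of a group biological replicates, while the design text calls them duplicates of a pool, so the p-values rest on spread among arrays that could be technical.

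The respiratory chain passes electrons from NADH (complex I) and succinate (complex II) through ubiquinone to complex III, by cytochrome c to complex IV, and from there to oxygen. Complexes I, III and IV pump protons out of the mitochondrial matrix, and complex V, the ATP synthase, lets them flow back to make ATP. Most subunits are encoded in the nucleus and a few in mitochondrial DNA. In macrophages the balance between respiration and glycolysis is known to shift with activation, and respiration is a feature of alternatively activated cells.

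Most respiratory chain transcripts lay slightly lower with imatinib on the deposited scale. Signals were compared as log2(signal + 32) with limma over 8145 genes, with a Benjamini-Hochberg adjusted p under 0.05 as the threshold. Of the 85 members, 84 passed the signal filter; Cox4i2 did not. Of these 84, 14 were called lower and 1 higher, against 8.73% of all tested genes lower and 6.80% higher. The called share of the members was 16.7% lower. The median log2 difference of the members, imatinib minus vehicle, was -0.16, with an interquartile range from -0.27 to -0.06, and that of all tested genes was -0.02. The difference was negative for 68 of the 84 members on the deposited scale (against 52.8% of all tested genes), for 70 under quantile normalization, for 43 with equal array medians and for all 84 when the macrophage markers were set equal. Both imatinib arrays lay below both vehicle arrays for 52 members (61.9%), against 29.9% of all tested genes, and above them for 6, against 26.1%.

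How many members were called depended on the scaling. With equal array medians, which raises every log2 difference by 0.16, 4 members were lower and 2 higher, against 6.04% and 12.9% of all tested genes; the 4 were Cycs, Cox7a1, Ndufb9 and Atp5md. With the mean of 15 macrophage markers set equal on all arrays, which lowers every difference by 0.50, 77 members were lower, against 68.9% of all genes, and 0 were higher, against 1.10%. Under quantile normalization 27 were lower, against 8.46%, and 0 were higher, against 6.93%. Without the mean-variance trend 3 were lower (Cycs, Cox7a1 and Ndufb9), against 6.35%, and 0 were higher, against 2.44%. Cox7a1, tested only through its vehicle arrays, is counted among the lower members under each of these settings. Cox8b, tested in the same way, is among the 77 with equal macrophage markers. These counts of 0 higher are limma counts at the adjusted threshold; on the deposited scale 2 members were higher and 35 lower at an unadjusted p under 0.05, against 12.7% and 15.4% of all tested genes. The members' median was below that of all tested genes by 0.14 on the deposited scale. Equal array medians and equal macrophage markers shift every gene alike, and leaving out the trend changes no difference. These 3 settings therefore keep that gap by construction and are no check of it. Under quantile normalization, which can change the gap, it was 0.22.

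Markers of other cells moved between the groups on the same arrays. All 14 epithelial markers were lower with imatinib, with a summed signal of 34242 to 34802 with vehicle and 6936 to 7036 with imatinib. Krt19 (log2 difference -2.89) and Dsp (-2.65) fell most. Of 11 fibroblast markers tested, 7 were lower (summed signal 8022 to 8744 with vehicle, 4080 to 4443 with imatinib), led by Loxl1 (-1.51) and Pcolce (-1.35). Of 15 macrophage markers 11 were higher and none lower (limma; 0 lower at an unadjusted p under 0.05; summed signal 159030 to 161230 with vehicle and 189328 to 199909 with imatinib), led by Mertk (1.16) and Itgam (0.97). The mean vehicle signal of Itgam (76.3) lay below the filter signal of 79.8. Itgam passed the filter through its imatinib arrays, so its call is given as a description. For the Gapdh control probe sets, the 3' signal divided by the 5' signal, a measure of RNA integrity, was 2.76 to 2.91 with vehicle and 2.09 to 2.34 with imatinib. The part of these differences in the results on the respiratory chain was not tested. In a pooled sample, fewer cells of a type and less RNA per cell cannot be told apart.

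**Figure D1:**
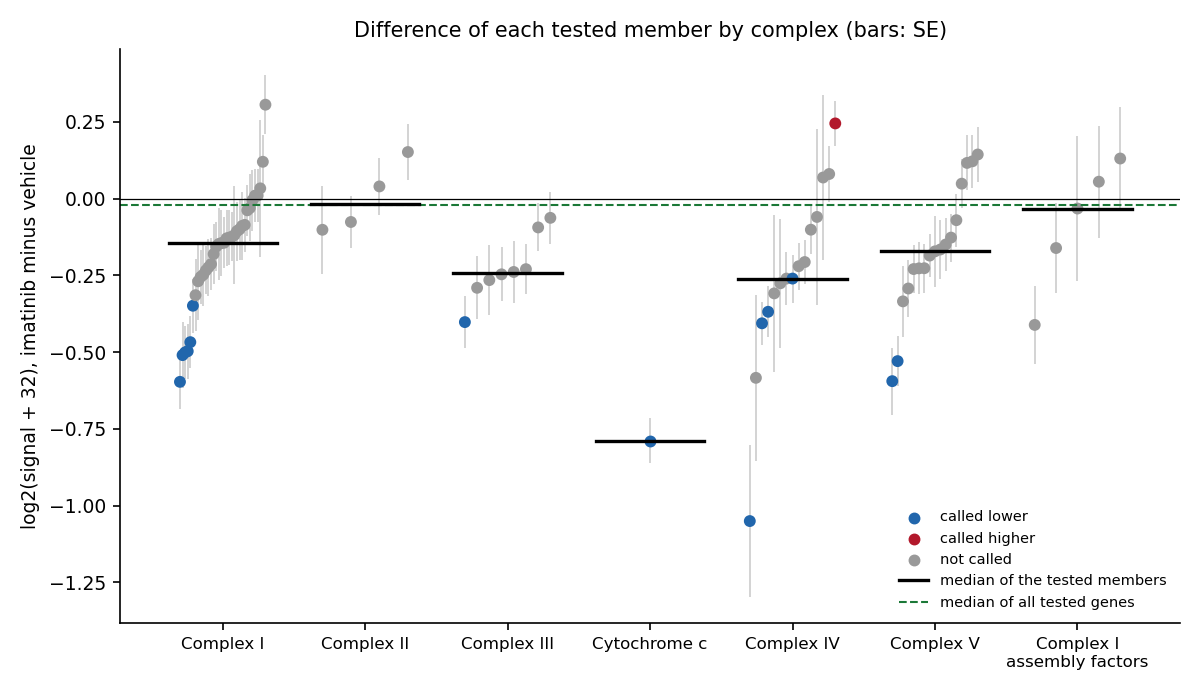
Each point is the log2 difference of 1 tested member, imatinib minus vehicle on log2(signal + 32), with its SE as a bar, grouped by complex; black lines are medians and the dashed line is the median of all tested genes (-0.02). The medians run from -0.02 for complex II to -0.26 for complex IV, cytochrome c lies at -0.79, and 1 member, Cox7a2l, was called higher.

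Cytochrome c, the soluble carrier between complexes III and IV and a trigger of apoptosis when it leaves the mitochondrion, had the clearest decrease. Cycs had signals of 10299.8 and 10151 with vehicle, compared with 5983 and 5834 after imatinib. The imatinib arrays thus lay far below the vehicle arrays, which differed little from each other. The level was 1.73-fold lower with imatinib (log2 difference -0.79 ± 0.07, SE, limma adjusted p = 2.8e-05). Both further Cycs probe sets were also lower (-0.67 and -0.44). Cycs was the only called member that kept its call under all 17 alternatives, with differences from -1.29 with equal macrophage markers to -0.63 with equal array medians.

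**Figure D2:**
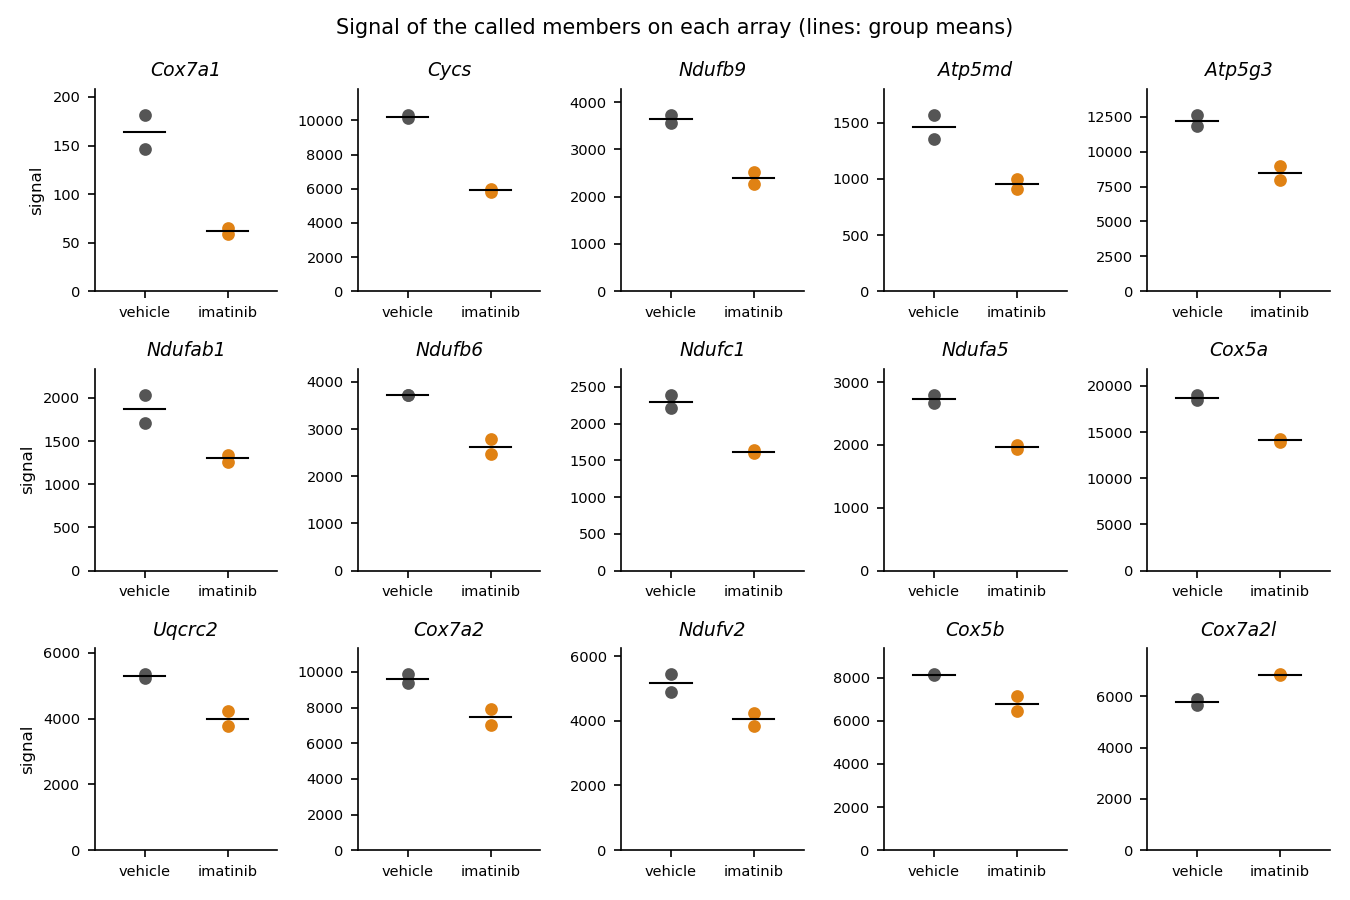
Signal (linear axis from 0) of the 15 called members on each of the 2 vehicle and 2 imatinib arrays, with group means as lines, ordered by log2 difference. Imatinib lies below vehicle on both arrays for 14 genes, from Cox7a1 and Cycs to Cox5b, and above it for Cox7a2l.

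Complex I oxidises NADH through core subunits conserved from bacteria, around which many supernumerary subunits are arranged. Of its 34 members 6 were lower and none higher, against 8.73% and 6.80% of all tested genes, with a median of -0.14 on the deposited scale and 0.02 with equal array medians. At an unadjusted p under 0.05, limma gave 12 lower and 1 higher, against 15.4% and 12.7%. Among the 6 core subunits tested, Ndufv2, an iron-sulfur subunit of the NADH-oxidising arm, was the 1 called. Its signal lay at 4885 and 5435 with vehicle and at 4252 and 3836 with imatinib (log2 difference -0.35 ± 0.09, adjusted p = 0.021). The groups did not overlap, but the call was lost without vehicle array 2 (-0.27, limma adjusted p = 0.13) or without imatinib array 2 (-0.28, adjusted p = 0.097). The other core subunits that carry flavin or iron-sulfur clusters, Ndufv1 (-0.22), Ndufs1 (-0.27) and Ndufs7 (-0.18), had negative differences and did not pass. Ndufs8, a core subunit with iron-sulfur clusters near the ubiquinone site, had the opposite sign (0.31 ± 0.10, adjusted p = 0.055). Ndufs8 was called higher with the filter at the 60th percentile and with equal array medians. Its 5 further probe sets did not all share that sign. The core subunits ranged from -0.35 to 0.31.

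Supernumerary subunits of complex I held the other 5 calls, all lower. Ndufb9 and Ndufb6 belong to the membrane arm. Ndufb9 had signals of 3723 and 3565 with vehicle and 2275 and 2528 with imatinib (-0.60 ± 0.09, SE, limma adjusted p = 0.00077), and its second bright probe set differed by -0.29. Ndufb6 had 3724 and 3723 with vehicle and 2472 and 2781 with imatinib (-0.50 ± 0.09), while its other probe set gave -0.01. Both genes were thus lower on the chosen probe set without overlap of the arrays, but the probe sets of Ndufb6 disagreed in size.

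The other 3 calls were Ndufab1, Ndufc1 and Ndufa5. Ndufab1 encodes the mitochondrial acyl carrier protein, which also serves fatty acid and lipoic acid synthesis. Its signal lay at 2034 and 1706 with vehicle and at 1340 and 1259 with imatinib (-0.51 ± 0.11), and its second probe set gave -1.02. The groups were separate, and the call was lost without vehicle array 1 (-0.39, limma adjusted p = 0.061). Ndufc1, a small membrane subunit, went from 2205 and 2390 to 1597 and 1639 (-0.50 ± 0.09). Its second probe set gave -0.21 and was not called, so the call was lost when probe sets that may hit several transcripts were left out. Ndufa5, a subunit of the arm that reduces ubiquinone, went from 2666 and 2797 to 1994 and 1938 (-0.47 ± 0.08), and its second probe set gave -0.54. The remaining supernumerary subunits ranged from -0.31 for Ndufs5 to 0.12 for Ndufa4, which by current knowledge belongs to complex IV; counting it there left the medians at -0.14 for complex I and -0.24 for complex IV. The bright members Ndufc2 (-0.16, adjusted p = 0.24) and Ndufa1 (-0.23, adjusted p = 0.069) did not pass.

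The Ndufaf assembly factors help to build complex I and leave it. None of 5 tested was called, against 8.73% of all tested genes lower and 6.80% higher. At an unadjusted p under 0.05, limma gave 1 lower and 0 higher, against 15.4% and 12.7%. With so few genes, no call at these shares is no result about the assembly factors. Their median was -0.03, or 0.13 with equal array medians and 0.06 without vehicle array 1. Ndufaf4 lay just outside the threshold, with signals of 567 and 609 with vehicle and 421 and 447 with imatinib (-0.41 ± 0.13, adjusted p = 0.0503). Its arrays did not overlap. Ndufaf3 differed by -0.16, Ndufaf5 by -0.03, Ndufaf7 by 0.05 and Ndufaf1 by 0.13.

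Complex II, succinate dehydrogenase, is also an enzyme of the tricarboxylic acid cycle and has no subunit encoded in mitochondrial DNA. None of its 4 genes was called, against 8.73% of all tested genes lower and 6.80% higher. At an unadjusted p under 0.05, limma gave 0, against 15.4% lower and 12.7% higher. With so few genes, no call at these shares is no result about complex II. The median was -0.02, or 0.14 with equal array medians and 0.10 without imatinib array 2. The flavoprotein gene Sdha had signals of 1750 and 1698 with vehicle and 1848 and 1699 with imatinib (0.04 ± 0.09). The iron-sulfur protein gene Sdhb had 2458 and 2467 with vehicle and 2405 and 2265 with imatinib (-0.08 ± 0.08). The arrays of Sdha overlapped, and those of Sdhb lay slightly lower with imatinib. The membrane anchor genes Sdhc (-0.10) and Sdhd (0.15 ± 0.09) had opposite signs on the chosen probe sets. The second Sdhd probe set gave -0.40 (limma adjusted p = 0.047 over all probe sets above the filter). Those of Sdhc and Sdha gave -0.30 and -0.11. The median of complex II is that of the chosen probe sets only.

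Complex III takes electrons from ubiquinol to cytochrome c. All 8 of its genes had both imatinib arrays below both vehicle arrays, against 29.9% of all tested genes. On the chosen probe sets 1 of the 8 was called lower, against 8.73%, which is near that share. At an unadjusted p under 0.05 (limma) 6 were lower, against 15.4%. The median was -0.24 on the deposited scale, -0.08 with equal array medians and -0.15 without imatinib array 2. Uqcrc2, a core subunit of the matrix side, had signals of 5232 and 5346 with vehicle and 4238 and 3763 with imatinib (-0.40 ± 0.08, limma adjusted p = 0.0077). Its second probe set differed by only -0.10. Uqcrfs1, the Rieske iron-sulfur protein, had 1505 and 1521 with vehicle and 1327 and 1142 with imatinib; it did not pass (-0.29 ± 0.10, adjusted p = 0.086). The other core gene, Uqcrc1, differed by -0.06. The 5 small subunits ranged from -0.27 for Uqcr10 to -0.09 for Uqcrh, and Uqcrb lay at -0.23 (adjusted p = 0.082). Further probe sets of 2 of them had larger differences. Those of Uqcr10 gave -0.71 (limma adjusted p = 0.0064 over all probe sets above the filter) and -0.45 (0.13). That of Uqcrb gave -0.39 (0.024).

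Complex IV, cytochrome c oxidase, is the site of oxygen reduction, and its nuclear subunits include isoforms that differ between tissues. Of 15 members tested, 4 were lower and 1 higher, against 8.73% and 6.80% of all tested genes (1 in 15 is near the latter). The 4 include Cox7a1, which was tested only through its vehicle arrays. The median, which takes in Cox7a1 and the likewise dim Cox8b, was -0.26 on the deposited scale and -0.10 with equal array medians. Cox5a, a common subunit on the matrix side, had signals of 18411 and 19019 with vehicle and 14267 and 13960 with imatinib (-0.41 ± 0.07, limma adjusted p = 0.0024). Both of its other probe sets were called lower too (-0.44 and -0.29). Cox7a2, the common isoform of subunit VIIa, had 9392 and 9861 with vehicle and 7928 and 6994 with imatinib (-0.37 ± 0.08, adjusted p = 0.011). That call was lost without vehicle array 2 (-0.33, limma adjusted p = 0.068) or imatinib array 2 (-0.28, adjusted p = 0.051). Cox5b, a zinc-binding subunit, had 8151 and 8114 with vehicle and 7132 and 6452 with imatinib (-0.26 ± 0.08, adjusted p = 0.046). Its call was lost without vehicle array 1 (limma adjusted p = 0.17), vehicle array 2 (0.13) or imatinib array 2 (0.20), and the 3 further Cox5b probe sets above the filter ranged from -0.33 to -0.24.

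Other common subunits of complex IV did not pass on the chosen probe sets. Cox6a1 differed by -0.21, Cox6b1 by -0.22, Cox6c by -0.26 and Cox4i1 by -0.10, and their imatinib arrays all lay below the vehicle arrays. The second probe set of Cox6a1 gave -0.35 (limma adjusted p = 0.021 over all probe sets above the filter). Those of Cox6b1 (-0.11) and Cox6c (-0.24) were not called. Cox8a (0.08) and Cox7c (-0.06) had overlapping arrays. The second Cox8a probe set above the filter (signal 2374, against 2700 for the chosen one) gave -0.20. Cox7c was dim, at a mean signal of 87.5 near the filter signal of 79.8, and had an SE of 0.29. Only Cox7a2l was called higher. Its product is related to subunit VIIa and joins complexes III and IV in supercomplexes. Its signal lay at 5650 and 5883 with vehicle and at 6822 and 6851 with imatinib (1.18-fold, 0.24 ± 0.07, limma adjusted p = 0.048). The groups were separate, and both further probe sets were higher (0.27 and 0.35). The call was lost whichever array was left out (limma adjusted p from 0.10 without vehicle array 2 to 0.23 without vehicle array 1; 0.12 without imatinib array 1 and 0.11 without imatinib array 2), and with equal macrophage markers the difference was -0.26.

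The tissue isoforms of complex IV gave dim signals. Cox7a1, the isoform of heart, skeletal muscle and brown fat, had signals of 146 and 181 with vehicle and 59.1 and 65.3 with imatinib. Both imatinib signals lay below the filter signal of 79.8, so the gene was tested only through its vehicle arrays, and its call is given as a description. On its single probe set the log2 difference was -1.05 ± 0.25 (limma adjusted p = 0.014). The call was lost without vehicle array 2 (-0.92, limma adjusted p = 0.11) or imatinib array 1 (adjusted p = 0.052). Of 4 muscle markers tested, Acta2 was lower (-0.82), and the summed signal of all 8 muscle markers was 3025 to 3508 with vehicle and 1995 to 2263 with imatinib; their part in the Cox7a1 difference was not tested. The muscle isoforms Cox6a2 (-0.31) and Cox8b (-0.58), and Cox8c (-0.28) and Cox6b2 (0.07), which are known from testis, did not pass. Cox8b had signals of 144 and 96.9 with vehicle and 71.2 and 65.9 with imatinib. Like Cox7a1, it was tested only through its vehicle arrays, so its difference is given as a description. Cox4i2, an isoform linked to low oxygen, was the member left out by the filter, at a mean signal of 58.3. Cox6b2 lay just inside, at 83. Cox4i2 had signals of 42.1 and 105 with vehicle and 61.8 and 37.9 with imatinib, so its arrays overlapped.

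Complex V consists of a catalytic head and central stalk, a peripheral stalk and a membrane part with a rotating ring of c subunits. Of its 17 members 2 were lower and none higher, which is near the 8.73% and 6.80% of all tested genes. At an unadjusted p under 0.05, limma gave 8 lower and 0 higher, against 15.4% and 12.7%. The members had a median of -0.17 on the deposited scale, -0.01 with equal array medians and -0.10 without imatinib array 2. The 5 head and central stalk genes ranged from -0.23 for the catalytic subunit gene Atp5b to 0.14 for Atp5e, and none passed. The 4 peripheral stalk genes ranged from -0.19 for Atp5pb (adjusted p = 0.11) to 0.12 for Atp5h (adjusted p = 0.41), also without a call. Atp5md, whose small membrane protein (DAPIT) helps ATP synthase to form dimers, had signals of 1567 and 1354 with vehicle and 1002 and 908 with imatinib. It was 1.51-fold lower (-0.59 ± 0.11, limma adjusted p = 0.0036), and its arrays were separate. The remaining membrane subunit genes ranged from -0.29 for Atp5k to -0.07 for Atp5l.

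The c ring is encoded by 3 genes whose precursors differ in the import peptide and give the same mature protein. They did not differ by the same amount. Atp5g3 had signals of 11836 and 12605 with vehicle and 8948 and 7986 with imatinib. It was 1.44-fold lower (-0.53 ± 0.08, limma adjusted p = 0.0011) without overlap. Atp5g1 had 785 and 863 with vehicle and 675 and 618 with imatinib, also without overlap, and did not pass (-0.33 ± 0.12, adjusted p = 0.079). Atp5g2 had 2949 and 2760 with vehicle and 2918 and 3281 with imatinib, with overlapping arrays (0.12 ± 0.09, adjusted p = 0.45, or -0.38 with equal macrophage markers). As the mean of its probe sets it was -0.23, but the other probe set in that mean (-0.58) had a signal of 29.5, below the filter signal of 79.8. The differences between these genes were not tested.

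The upstream sequences of the c ring genes and of Cycs are shown because Cycs had the clearest decrease and the c ring genes, which encode the same mature protein, differed in their values. Each is the run of 250 bases before the RefSeq gene start in GRCm38.p6, 5′ to 3′ on the gene's own strand. Capitals mark letters of motifs named for factors of respiratory genes: GCATGCGC for NRF-1, CCGGAAG for ETS factors such as GABP, TGACGTCA for CREB, AAGATGGCG for YY1, and CCAAT for NF-Y, each searched on both strands. The genes lie on the minus strand, at chr6:50566570-50566819 (Cycs), chr11:96075632-96075881 (Atp5g1), chr15:102671048-102671297 (Atp5g2) and chr2:73911327-73911576 (Atp5g3).
Cycs: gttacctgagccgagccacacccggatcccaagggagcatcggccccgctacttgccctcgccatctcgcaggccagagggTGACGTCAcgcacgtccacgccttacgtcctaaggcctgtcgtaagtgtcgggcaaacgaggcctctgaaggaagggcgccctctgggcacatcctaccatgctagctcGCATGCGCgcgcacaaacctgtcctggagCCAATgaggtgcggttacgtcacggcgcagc
Atp5g1: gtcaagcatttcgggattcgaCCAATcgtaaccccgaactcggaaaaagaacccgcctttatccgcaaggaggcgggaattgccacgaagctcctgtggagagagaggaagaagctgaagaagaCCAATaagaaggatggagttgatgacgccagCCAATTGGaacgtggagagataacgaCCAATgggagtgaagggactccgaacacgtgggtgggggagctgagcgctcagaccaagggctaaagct
Atp5g2: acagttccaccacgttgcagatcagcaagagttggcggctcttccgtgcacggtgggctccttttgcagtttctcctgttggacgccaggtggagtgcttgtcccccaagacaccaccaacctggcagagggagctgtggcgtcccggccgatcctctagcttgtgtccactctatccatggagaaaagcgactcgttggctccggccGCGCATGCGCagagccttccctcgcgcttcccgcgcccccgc
Atp5g3: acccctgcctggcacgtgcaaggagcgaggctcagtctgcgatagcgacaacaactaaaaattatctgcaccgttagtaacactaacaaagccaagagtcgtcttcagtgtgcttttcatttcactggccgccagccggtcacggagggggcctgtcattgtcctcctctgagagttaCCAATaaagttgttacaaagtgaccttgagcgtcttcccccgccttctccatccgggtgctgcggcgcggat
In Cycs the capitals are, from the left, the CREB, NRF-1 and CCAAT letters. Atp5g1 holds only CCAAT letters, of which the run of 8 capitals is an overlapping match on both strands. The capitals of Atp5g2 are an NRF-1 match that overlaps itself on both strands, and Atp5g3 holds a CCAAT match.

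A RefSeq promoter was at hand for 71 of the 85 members (76 promoters). The NRF-1 letters were in 9 of these 76 (11.8%, against 2.26% of 32851 promoters of all genes), the ETS letters in 13 (17.1% against 6.91%) and the CREB letters in 4 (5.26% against 1.55%). The YY1 letters were in 1 (1.32% against 0.606%) and CCAAT in 30 (39.5% against 33.8%). Among the 13 promoters of the 12 lower members that had one, the NRF-1, ETS and CREB letters each occurred in 1, and CCAAT in 4. A match is a description of these letters and not a binding site.

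**Figure D3:**
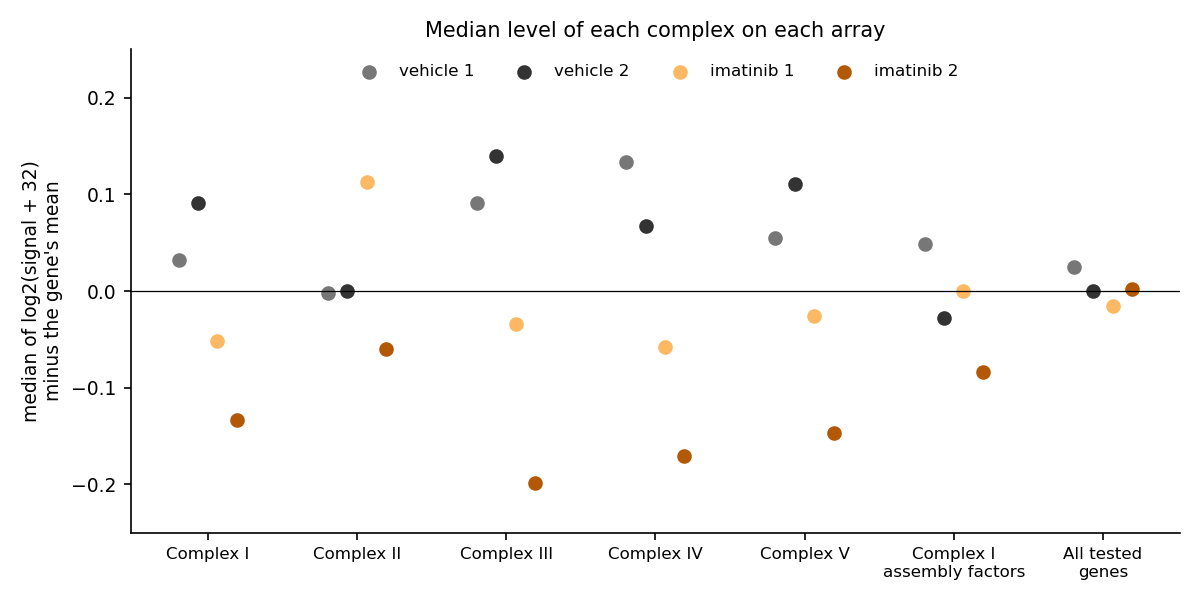
Median over the tested members of each complex of log2(signal + 32) minus the gene's own mean, on each of the 4 arrays, beside all tested genes. For complexes I, III, IV and V both imatinib arrays lie below both vehicle arrays, with imatinib 2 lowest, while those of complex II, of the assembly factors and of all tested genes overlap.

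The arrays of a group also differed from each other in a common direction. Imatinib array 1 lay above imatinib array 2 for 64 of the 84 members, with a median gap of 0.10 on the log2 scale, and vehicle array 2 above vehicle array 1 for 55. The difference between the groups (-0.16) was thus not much larger than the gap between the imatinib arrays. The median of the members was -0.13 without imatinib array 2 and -0.22 without imatinib array 1. The number of members called lower was 11 without imatinib array 2 (against 8.15% of all tested genes) and 11 without vehicle array 2 (7.37%). It was 13 without vehicle array 1 (6.21%) and 15 without imatinib array 1 (6.85%).

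**Figure D4:**
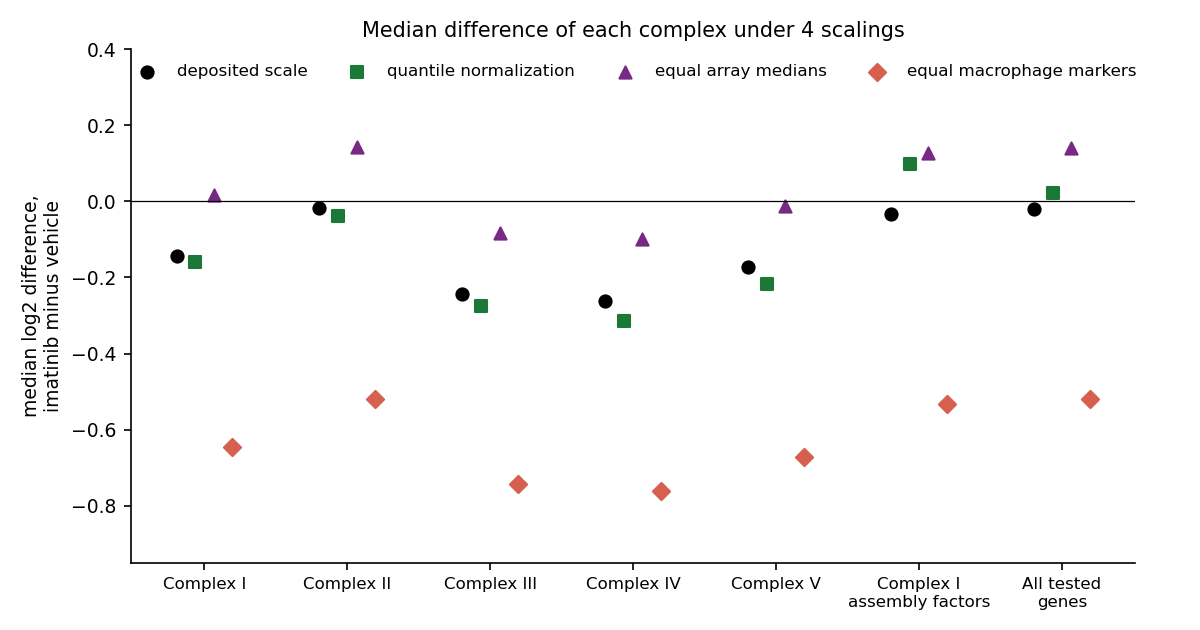
Median log2 difference of each complex, imatinib minus vehicle, on the deposited scale and under 3 other scalings, beside the median of all tested genes. Complexes III, IV and V stay negative under each of them (-0.01 for complex V with equal array medians). Complex I moves from -0.14 to 0.02 and complex II from -0.02 to 0.14 with equal array medians. Equal array medians and equal macrophage markers each add the same offset to every gene. Quantile normalization does not: the median moves from -0.02 to 0.02 for all tested genes and from -0.16 to -0.19 for all members.

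The probe sets of a gene were compared where several lay above the filter. Of 62 further probe sets, 48 had the sign of the chosen one. All 18 further probe sets of called members had that sign, though that of Ndufb6 only at -0.01, and 10 of these were called themselves. The opposite signs were thus all in members not called. Among these, a further probe set of Sdhd was called lower (-0.40) against a positive chosen one. Atp5a1, Atp5k, Cox6a1, Ndufa12, Ndufs4, Uqcr10 and Uqcrb also had a further probe set called lower. Of the 84 tested members, 51 were represented by probe sets whose ID marks that they may hit several transcripts, which matters here because many respiratory chain genes have processed pseudogenes. When such probe sets were left out, 59 members could be tested. Of these 12 were lower, against 7.96% of all genes tested in that way, and 0 were higher, against 7.56% (limma adjusted p). The 12 included 9 of the 14 lower members.

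Genes of other mitochondrial functions were read against the same shares of all tested genes (8.73% lower, 6.80% higher). At an unadjusted p under 0.05 (limma), these shares were 15.4% lower and 12.7% higher. On the deposited scale the mitochondrially encoded complex I subunit ND5 was lower, with signals of 15510 and 16906 with vehicle and 11768 and 11938 with imatinib (-0.45, limma adjusted p = 0.0018). It was the only mitochondrially encoded subunit measured by a probe set with 1 symbol. Of 16 genes of the tricarboxylic acid cycle and pyruvate dehydrogenase, 1 was lower and none higher (limma, 4 lower and 2 higher at an unadjusted p under 0.05), with a median of -0.16; the lower gene was Sucla2, a subunit of succinyl-CoA ligase (-0.39). Of 18 assembly factors of complexes II to V, Cox17, the copper chaperone of complex IV, was the 1 lower (-0.34), and the median was -0.02. None of 6 other assembly factors of complex I was called (limma, 0 at an unadjusted p under 0.05; Tmem70 -0.02, Timmdc1 -0.32). Of 20 carriers and other mitochondrial membrane proteins, the channel gene Vdac1 was lower (-0.54) and none was higher (limma, 6 lower and 1 higher at an unadjusted p under 0.05).

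None of 13 regulators of respiratory gene transcription passed the adjusted threshold. At an unadjusted p under 0.05, limma gave 4 lower and 1 higher, against 15.4% and 12.7% of all tested genes. The coactivator genes Ppargc1a (-0.51, adjusted p = 0.13) and Ppargc1b (-0.46, adjusted p = 0.097) are named here after their values were seen. Ppargc1a had signals of 184 and 178 with vehicle and 117 and 118 with imatinib. Ppargc1b had 288 and 300 with vehicle and 222 and 188 with imatinib. For neither gene did the arrays of the groups overlap. The bright regulators Yy1 (0.21) and Tfam (-0.04) did not pass.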

How the data were processed

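Signals of 22690 probe sets were deposited as linear intensities. Per the submitters' processing notes, the authors computed them by MAS5 with the Expression Console of Affymetrix (version and parameters not given in the sources used here). All 4 arrays had the same trimmed mean signal (499.9) and differed in their medians (121.5 to 151.5), so what was held equal between arrays bears on small differences. Of 22626 probe sets without controls, 20380 had 1 symbol. The symbols of all 85 members equalled those of RefSeq (by Entrez ID). A gene was tested if the mean log2 level of its brightest probe set reached the 40th percentile (a signal of 79.8). The limma fit (lmFit, eBayes with a mean-variance trend) used log2(signal + 32), which understates changes of dim genes. Errors of log2 differences are SE. Precision is limited by having 2 arrays a group. The fit was checked on simulated data.

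The members, gene lists, tests and alternatives were chosen with earlier results of these data known. The rule for named genes took every called member, the 2 brightest of each complex, Cycs, the isoform sets, the members next to the filter, up to 4 called genes of each pathway list (or its 2 brightest) and up to 2 called markers of each cell type; other members named were added after their values were seen. Of the marker lists not given in the text above, 0 of 6 endothelial genes tested were called (limma, 0 at an unadjusted p under 0.05). Among all tested genes 8.73% were called lower and 6.80% higher (15.4% and 12.7% unadjusted). Of 4 genes of GIST and interstitial cells of Cajal, Edn3 (-0.91) and Kit (-0.64) were lower. Ano1 (-0.25) and Prkcq (0.44) did not pass, and both imatinib arrays of Prkcq lay above both vehicle arrays. Of 8 T and NK cell genes, Gzma (0.54) and Klrd1 (0.46) were higher. Of 4 neutrophil genes S100a8 (0.91) and Csf3r (0.70) were higher. Both vehicle signals of S100a8 (61.0 and 43.6) lay below the filter signal of 79.8. S100a8 was thus tested only through its imatinib arrays, and its call is given as a description. Of 5 B cell genes 2 were higher, led by Cd22 (0.84), and Ighm (-0.62) was lower. Analyses used R 4.3.3, limma 3.58.1, Python 3.11.15, pandas 2.3.3, numpy 2.4.6 and matplotlib 3.10.9.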

Additional observations from a re-analysis of the deposited data

How the results depend on the processing

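Over 17 alternatives, 36 named members gave 601 values, of which 492 kept direction and call, 52 lost the call, 38 gained one and 19 turned direction; the causes were not tested. The 14 members called lower became 27 under quantile normalization, 4 with equal array medians, 77 with equal macrophage markers and 3 without the trend, and 11 to 15 when 1 array was left out. The 1 called higher, Cox7a2l, became 0 without the filter, under quantile normalization and with equal macrophage markers. It also became 0 without probe sets that may hit several transcripts and without the trend. With the filter at the 60th percentile or with equal array medians 2 were higher, Cox7a2l and Ndufs8. The 1265 genes called in all became 5699 with equal macrophage markers, 716 without the trend and 849 to 1108 when 1 array was left out. Without the filter 10 of the 14 stayed lower (lost: Cox5b, Cox7a1, Cox7a2, Ndufv2), and with all probe sets of a gene averaged 9 did (lost: Cox5b, Ndufb6, Ndufb9, Ndufv2, Uqcrc2). With the replicate number as a block, 13 members were lower and 0 higher (1065 genes called in all); the numbers do not pair the arrays by the labels, and same-numbered deviations correlated at -0.13. The crossed replicate block, chosen after seeing the data, gave 33 lower and 2 higher members and 1962 calls in all. With equal array medians and with equal macrophage markers, the median differences were -0.0027 and -0.66 for all members, 0.016 and -0.64 for complex I, 0.14 and -0.52 for II, -0.082 and -0.74 for III, -0.10 and -0.76 for IV, -0.011 and -0.67 for V, and 0.13 and -0.53 for the assembly factors. For the assembly factors the median was -0.16 with the filter at the 60th percentile or without probe sets that may hit several transcripts, and 0.10 under quantile normalization. Leaving out 1 array gave medians from -0.22 to -0.13 for all members, -0.21 to -0.12 for complex I, -0.070 to 0.10 for II, -0.32 to -0.15 for III, -0.28 to -0.19 for IV, -0.22 to -0.10 for V and -0.13 to 0.055 for the assembly factors. Direction turned with equal macrophage markers for Atp5g2 (-0.38), Atp5h (-0.38), Cox6b2 (-0.43), Cox7a2l (-0.26), Cox8a (-0.42), Ndufa4 (-0.38) and Sdhd (-0.35). It turned with the mean of probe sets for Atp5g2 (-0.23) and Cox8a (-0.20), each averaged with a probe set below the filter, and for Sdhd (-0.13). Under quantile normalization it turned for Atp5h (-0.034). It turned with equal array medians for Cox4i1 (0.059), Ndufc2 (0.0045), Sdhb (0.085) and Uqcrh (0.067), and for Ndufc2 (0.044) without probe sets that may hit several transcripts. With 1 array left out it turned for Cox6b2 (-0.057 without imatinib array 1, to 0.19 without imatinib array 2), Cox8a (-0.0087 without imatinib array 1, to 0.17 without imatinib array 2) and Cox8c (0.068 without vehicle array 1, to -0.62 without vehicle array 2). Counting Ndufa4 in complex IV was also chosen after seeing the data. Among dim members, the SE was 0.29 for Cox7c and 0.25 for Cox7a1, against 0.07 for Cycs.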
